A study of Mus musculus with 4 samples.

Results

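Snhg1, Snhg5, Snhg6, Snhg7, Snhg10 and Gas5 are snoRNA host genes, 6 of the 23420 gene symbols in the expression table. They were picked by symbol after their measured rise with AZ20 in these same libraries had been seen, so their change between the conditions is given here as a description, without a test. Pachytene spermatocytes were isolated by FACS from adult wild-type (WT) C57BL/6 males, 23 weeks of age, and were cultured for 24 h with DMSO (Ctrl, 2 libraries) or with 10 µM AZ20, an inhibitor of the kinase ATR (AZ20, 2 libraries). According to the methods the cells of a mouse were divided between the conditions and each library was made from 15000 cells. Libraries with the same replicate number were therefore taken as pairs, called pair 1 and pair 2, although the labels do not state which libraries share a mouse. The design asked what RNA levels do when ATR activity is blocked in cells that have already silenced their sex chromosomes. All 6 genes are autosomal.

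A snoRNA host gene is transcribed as a long RNA whose introns carry small nucleolar RNAs. After splicing, the introns are trimmed to snoRNAs, which guide the chemical modification of ribosomal RNA, or to related small Cajal body RNAs, which guide that of spliceosomal RNA. The spliced exons of many such hosts code for no protein, are exported and translated over short reading frames, and are broken down by nonsense-mediated decay, so that their level reflects both synthesis and decay. Many host genes begin transcription at a run of pyrimidines like that of ribosomal protein genes. Total RNA levels such as those measured here cannot separate synthesis from decay, and in RNA from whole cell samples fewer cells of a type cannot be told apart from less RNA per cell.

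The 6 genes differ in size and in the number of small RNAs they hold. On GRCm38, with RefSeq bounds, Snhg1 spans chr19:8723487-8726326 on the plus strand and holds 8 small nucleolar RNA genes. Gas5, also on the plus strand at chr1:161034601-161038539, holds 9. Snhg5 (chr9:88521052-88522897), Snhg6 (chr1:9942025-9944118), Snhg7 (chr2:26637176-26640244) and Snhg10 (chr12:105030617-105032279) lie on the minus strand and hold 2, 1, 2 and 1. The one in Snhg10 is a small Cajal body RNA, Scarna13, and a microRNA gene, Mir3069, lies within its bounds. In the 5 hosts with a GENCODE transcript, every one of these small RNA genes lies in an intron of the spliced transcript. The spliced transcripts have 10 exons for Snhg1, 5 for Snhg5, 4 for Snhg6, 2 for Snhg10 and 12 for Gas5. GENCODE M21 has no entry under the symbol Snhg7, so its exons were not placed.

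**Figure D1:**
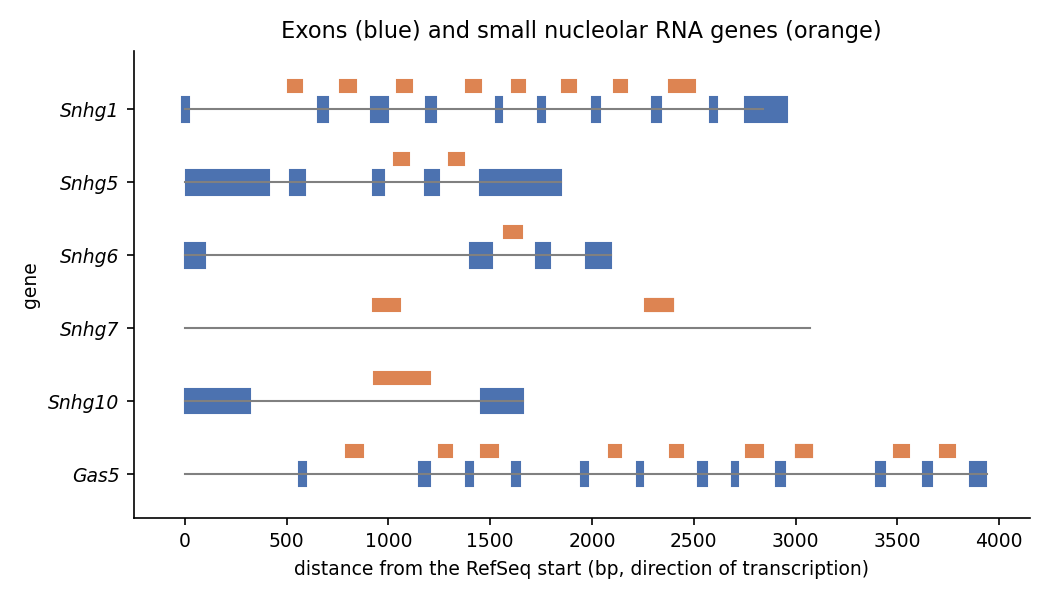
Maps of the 6 host genes, with the distance from the RefSeq start in bp on the horizontal axis and 1 gene a row. Grey lines are the RefSeq bounds, blue boxes the exons of the spliced GENCODE transcript and orange boxes the small nucleolar or Cajal body RNA genes; Snhg7 has no exons drawn. Gas5 and Snhg1 alternate short exons with 9 and 8 small RNA genes.

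One small RNA of each host is shown here, from the GENCODE transcript sequences (GRCm38), because these are the products that the intron of the host releases. In box C/D snoRNAs the capitals mark the C box and the D box, where the core proteins bind. In the box H/ACA type and in Scarna13 they mark the ACA near the 3′ end.
Gm22744 in Snhg1: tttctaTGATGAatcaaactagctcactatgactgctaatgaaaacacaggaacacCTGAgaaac
Snord50a in Snhg5: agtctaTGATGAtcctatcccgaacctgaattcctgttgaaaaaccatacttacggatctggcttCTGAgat
Snord87 in Snhg6: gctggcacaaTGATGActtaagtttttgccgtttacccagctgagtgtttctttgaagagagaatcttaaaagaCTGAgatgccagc
Snora17 in Snhg7: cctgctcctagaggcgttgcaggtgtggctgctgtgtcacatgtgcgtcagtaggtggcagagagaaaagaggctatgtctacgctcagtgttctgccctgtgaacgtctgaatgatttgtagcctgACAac
Scarna13 in Snhg10: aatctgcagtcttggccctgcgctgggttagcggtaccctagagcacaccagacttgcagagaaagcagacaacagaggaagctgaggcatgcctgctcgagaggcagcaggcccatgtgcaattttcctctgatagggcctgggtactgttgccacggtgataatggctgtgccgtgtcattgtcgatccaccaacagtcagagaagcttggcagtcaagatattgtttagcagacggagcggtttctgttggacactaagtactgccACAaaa
Snord47 in Gas5: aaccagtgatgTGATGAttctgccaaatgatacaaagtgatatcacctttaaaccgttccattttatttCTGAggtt

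Of the 25 GENCODE entries for small nucleolar RNAs in the 6 hosts (some genes are entered more than once), 17 held both boxes as TGATGA near the start and CTGA near the end, 4 held an ACA near the end, and 4 held neither in these exact letters. Snhg5 holds a pair of nearly identical copies, Snord50a and Snord50b, which share 71 of 72 bases and differ by C50A, counted from the 5′ end of Snord50a. Reads from such copies can fail the unique alignment that the authors required.

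The start regions of the hosts are shown because the genes were chosen for moving together. Each line gives 50 bases before the RefSeq start in lower case and the first 50 transcribed bases in capitals (RefSeq, GRCm38.p6). Windows were found for 5 of the 6 genes, and Gas5 has 2, for an upstream and a downstream RefSeq start.
Snhg1, chr19:8723437-8723536, plus strand: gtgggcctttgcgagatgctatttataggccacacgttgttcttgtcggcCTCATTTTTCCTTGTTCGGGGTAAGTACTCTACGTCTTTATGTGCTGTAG
Snhg5, chr9:88522848-88522947, minus strand: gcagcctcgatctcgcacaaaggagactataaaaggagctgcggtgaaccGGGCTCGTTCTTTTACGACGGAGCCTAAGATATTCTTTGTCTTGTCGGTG
Snhg7, chr2:26640195-26640294, minus strand: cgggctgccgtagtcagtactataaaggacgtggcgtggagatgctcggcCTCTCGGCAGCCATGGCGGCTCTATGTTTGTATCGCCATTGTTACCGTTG
Snhg10, chr12:105032230-105032329, minus strand: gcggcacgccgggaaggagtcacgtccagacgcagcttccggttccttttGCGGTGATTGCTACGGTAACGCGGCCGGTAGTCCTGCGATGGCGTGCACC
Gas5 upstream start, chr1:161034551-161034650, plus strand: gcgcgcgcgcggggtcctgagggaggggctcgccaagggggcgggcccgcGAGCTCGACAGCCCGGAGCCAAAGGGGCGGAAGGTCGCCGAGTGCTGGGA
Gas5 downstream start, chr1:161035116-161035215, plus strand: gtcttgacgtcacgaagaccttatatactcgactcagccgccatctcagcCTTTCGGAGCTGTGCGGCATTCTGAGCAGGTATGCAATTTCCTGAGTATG

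Snhg7 and the downstream start of Gas5 begin with C followed by further pyrimidines, 5 in a row in each. Such a start, C and at least 5 pyrimidines, is present in 2.51% of the 32851 promoter windows of the reference. Snhg1 starts with C but its run is 3 bases long, and Snhg5, Snhg10 and the upstream start of Gas5 start with G. This depends on the annotated start, which was taken from RefSeq alone. The spliced GENCODE transcripts of Snhg5 and Snhg1 begin at 7 and -12 bases from it. In Snhg5 that base is a T, the first of a longer run of pyrimidines. TATAAA on the gene's strand within 40 to 15 bases before the start was found in Snhg5 and Snhg7, and in 1.99% of all windows. On both strands of the whole 300-base window, TATAAA was found in Snhg1, Snhg5 and Snhg7 (13.6% of all windows). The GC box GGGCGG was in 5 of the 6 windows (35.7% of all), all but that of Snhg7, and a pair of matches in Snhg5 overlap each other. The CRE letters TGACGTCA were found only in the downstream window of Gas5 (1.79% of all) and the ETS letters CCGGAAG only in that of Snhg10 (8.86% of all). The E-box CACGTG (7.15%) and the ATF4 element TGATGNAAT (0.965%) matched in none of the 6 windows. No match overlapped one of another motif. These are matches of letters and not sites of binding.

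RNA of all 6 host genes was present in spermatocytes without the inhibitor. Levels are in TPM, the reads of a gene divided by the length of its model and scaled to the same total in every library. In Ctrl, Snhg6 was highest at 192 ± 31.8 TPM (SD, n = 2), followed by Snhg1 at 101 ± 6.79, Snhg10 at 73.3 ± 5.20, Snhg5 at 69.2 ± 6.54, Gas5 at 57.1 ± 11.5 and Snhg7 at 8.20 ± 0.69. The libraries separated Snhg6 from Snhg1, Snhg1 from Snhg10 and Gas5 from Snhg7. The ranges of Snhg10 and Snhg5 overlapped, as did those of Snhg5 and Gas5. Snhg6 stood above 90.7% of the 10316 genes tested and Snhg7 above 47.5%. With AZ20 the order was Snhg6, Snhg1, Snhg5, Snhg10, Gas5 and Snhg7, and only the ranges of Snhg5 and Snhg10 overlapped. The sum of the 6 genes was 535 and 466 TPM in the Ctrl libraries and 1052 and 1174 TPM in the AZ20 libraries.

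**Figure D2:**
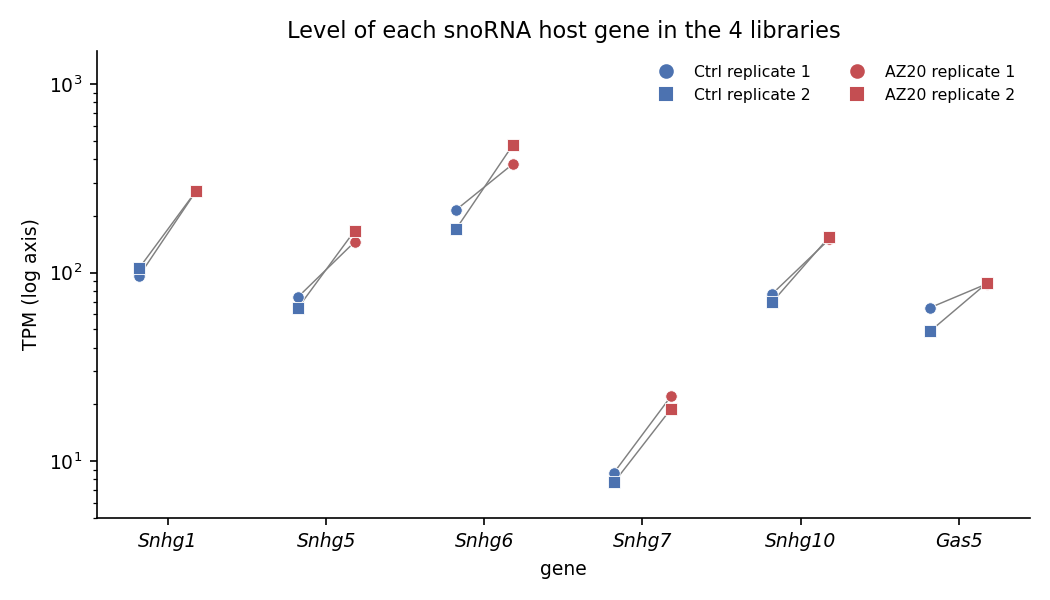
TPM of the 6 host genes on a log axis, by gene. Blue points are Ctrl and red points AZ20 libraries, circles are replicate 1 and squares replicate 2, and grey lines join the libraries of a pair. In each gene both red points lie above both blue points, with the smallest step in Gas5.

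The place of Gas5 in this order depends on the gene model. Its TPM corresponds to a counted length of 2566 bases, estimated from the reads behind the values, whereas its spliced GENCODE transcript is 502 bases long, a ratio of 5.11. The counted lengths of Snhg5, Snhg6 and Snhg10 were 1.01, 1.02 and 1.01 times their spliced transcripts, and that of Snhg1 was 0.79 times. Scaled to 502 bases, as if all its reads came from that transcript, Gas5 would stand at 333 and 250 TPM in Ctrl. With AZ20 it would stand at 446 and 451 TPM. In Ctrl these values lie above those of Snhg6, and with AZ20 they lie between its libraries. Such a rescaling leaves the change between conditions as it was. Whether counting only reads in the exons of that transcript would give another change was not tested.

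Snhg1, the host with 8 small RNA genes between its exons, had the highest mean log2 change of the 6. It was at 96.4 and 106 TPM in Ctrl and at 272 in each AZ20 library. Its AZ20 libraries differed by less than their counting error of 2.31% and 2.43%. The log2 change was 1.42 ± 0.16 (SE), on the log2(TPM + 1) scale used for every log2 change here, and the fold of the means was 2.69, with 2.82-fold in pair 1 and 2.57-fold in pair 2. In pair 2 the fold of Snhg6 was higher and that of Snhg5 about the same.

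Snhg5, host of the Snord50 pair, was at 73.8 and 64.5 TPM in Ctrl and at 145 and 166 TPM with AZ20, a log2 change of 1.16 ± 0.18, with 1.97-fold in pair 1 and 2.58-fold in pair 2. Snhg6, host of Snord87, was at 214 and 169 TPM in Ctrl and at 376 and 474 TPM with AZ20, a log2 change of 1.14 ± 0.19. Its 2 pairs differed most, with 1.75-fold in pair 1 and 2.80-fold in pair 2. The replicate order was opposite in the conditions for both genes, since replicate 1 was the higher in Ctrl and the lower with AZ20. The same held for Snhg10 and Gas5, whose AZ20 libraries were only 1.03-fold and 1.01-fold apart.

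Snhg7, host of Snora17 and Snora43, was the least abundant, at 8.68 and 7.71 TPM in Ctrl and 22.1 and 18.9 TPM with AZ20. These values rest on 65, 66, 238 and 184 reads, and the counting error was 12.4% and 12.3% in Ctrl. Its log2 change was 1.22 ± 0.23, and the pairs were alike at 2.54-fold and 2.45-fold. Snhg10, host of Scarna13, was at 77.0 and 69.6 TPM in Ctrl and at 150 and 154 TPM with AZ20, with a log2 change of 1.04 ± 0.17.

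Gas5, named for its accumulation in growth-arrested cells, had the smallest change. It was at 65.2 and 48.9 TPM in Ctrl and at 87.3 and 88.3 TPM with AZ20, on 1442 reads or more in every library. The log2 change was 0.63 ± 0.20, and the fold was 1.34 in pair 1 and 1.80 in pair 2. Its Ctrl libraries were the furthest apart of the 6 genes, at 1.33-fold. The groups did not overlap, but the lowest AZ20 library was only 1.34 times the highest Ctrl library.

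In all 6 genes both AZ20 libraries lay above both Ctrl libraries. Such a separation was present in 24.1% of the 9936 autosomal genes tested. A gene was called when its log2 change was at least 1 and the Benjamini-Hochberg adjusted p from limma was under 0.05. By this rule 5 of the 6 hosts were called higher, all but Gas5, and 2.28% of all genes tested or 0.101% of autosomal genes tested were called higher. Nothing is read from these counts, because the same contrast chose the genes. The 10 autosomal genes called higher included the 5 hosts, so the host genes are also part of that share. The median log2 change of the 6 was 1.15, and over all autosomal genes tested it was 0.06, with quartiles of -0.13 and 0.29. The median was 0.96 in pair 1 and 1.27 in pair 2. When all 4 libraries were shifted to a common median, the median over all genes went down by 0.20 on the log2 scale and the 6 changes ran from 0.42 to 1.22. Relative to the median of all genes, the changes ran from 0.55 to 1.35 under both scalings. They had to, since the shift is the same for every gene of a library. With quantile normalization this range was 0.623 to 1.455. The shift to a common median left only Snhg1 called. With replicate 1 or replicate 2 of Ctrl left out Snhg1 alone was called, and with either AZ20 library left out none was, while all 6 changes remained above 0.

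The small RNAs inside the hosts could not be followed in these libraries. Of the 23 genes, 7 had a row of their own in the table, and none of these had more than 17 reads in a library. Snord22 in Snhg1 had 2 and 10 reads in Ctrl and 17 and 3 with AZ20. Snord87 in Snhg6 had 0 and 6 reads in Ctrl and 2 and 9 with AZ20, while its host had between 795 and 2532 reads. Snord47 in Gas5 had 0 and 1 reads in Ctrl and 3 and 4 with AZ20. The ranges of Ctrl and AZ20 overlap for Snord22 and Snord87. Scarna13 and Mir5117 had no read in any library, and Snora17 had 1 read in 1 library. Snora43 in Snhg7 had 1 and 2 reads in Ctrl and none with AZ20. Its short length turns these reads into 2.14 and 3.74 TPM, so that it passed the filter and was called lower (adjusted p = 0.0423, limma), beside 0.0485% of all genes tested that were called lower. The call was lost in 5 of 10 alternatives, without the filter and with any library left out, and the adjusted p ran from 0.000378 to 0.405. No fold is given for it. Whether mature snoRNAs changed with their hosts was not detectable at this depth with a library made for longer RNA.

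Of the tested genes that start close to the hosts on the other strand, Slc3a2 was called lower and none was called higher. Slc3a2, which encodes the heavy chain of amino acid transporters, starts 118 bp from Snhg1 on the opposite strand. It was at 108 and 94.5 TPM in Ctrl and at 44.0 and 47.5 TPM with AZ20. Slc3a2 was called lower, with a log2 change of -1.12 ± 0.18 and an adjusted p of 0.0236 (limma), while Snhg1 was higher in the same libraries. Over the alternatives the adjusted p of Slc3a2 ran from 0.000783 to 0.319, and its log2 change from -1.33 to -1.03. Glrx5, which encodes a mitochondrial glutaredoxin, starts 409 bp from Snhg10. It was at 22.6 and 26.2 TPM in Ctrl and at 28.0 and 26.1 TPM with AZ20, so that the groups overlapped, and its log2 change was 0.15 ± 0.21 (adjusted p = 0.901, limma), turning to -0.055 with libraries at a common median.

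Zbtb37, a zinc finger gene that starts 248 bp from the start of Gas5 and overlaps it, stayed under 1 TPM, between 0.314 and 0.709 in the 4 libraries. Mcmdc2, a gene of meiotic recombination, overlaps the end of Snhg6 on the other strand. It was at 2.60 and 2.51 TPM in Ctrl and at 1.02 and 2.21 TPM with AZ20, with a log2 change of -0.48 ± 0.34 (adjusted p = 0.775, limma). Whether counting used strand is not given in the sources used here, so reads in these overlaps cannot be assigned to one of the genes. The opposite-strand gene at Snhg7, Snhg7os, was not analysed here.

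**Figure D3:**
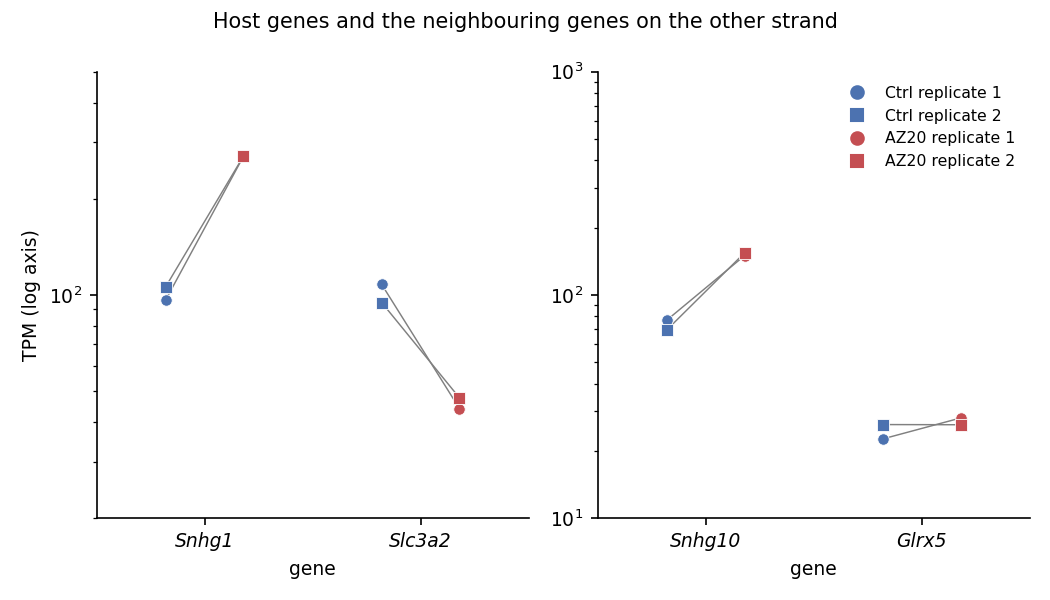
TPM on log axes for Snhg1 and Slc3a2 and for Snhg10 and Glrx5, with axes that differ between panels. Symbols are as in the plot of the 6 host genes. Snhg1 lies higher and Slc3a2 lower in both AZ20 libraries, while the values of Glrx5 overlap between the conditions.

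A list of other snoRNA host genes, nearly all non-coding, had log2 changes of the same sign as the 6 hosts. The list was chosen with earlier results of these data known, so its counts are a description and no independent support. It held 17 genes, of which 15 had a row in the table, some under an older symbol. Of these, 12 passed the filter of a mean above 1 TPM in Ctrl or AZ20. GENCODE annotates 11 of the 12 as non-coding and Taf1d as protein-coding. All 12 had a log2 change above 0, beside 5802 of the 9936 autosomal genes tested. Their changes ran from 0.41 to 1.34 with a median of 0.61, and without Taf1d the median was 0.65. Both AZ20 libraries were above both Ctrl libraries in 10 of the 12, beside 24.1% of autosomal genes tested. In 11 of the 12 the change was positive in both pairs, beside 34.1% of autosomal genes tested. By limma without the pairing none of the 12 was called, and 8 had an unadjusted p under 0.05, beside 5.16% of autosomal genes that were higher at that p. With the replicate block, which compares the libraries within pairs, 4 of the 12 were called, and 1.35% of autosomal genes were called higher by that fit. The same block kept the call of the 5 hosts and did not add Gas5.

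The 4 genes called within pairs were Zfas1, Snhg15, Snhg16 and Dancr. Zfas1, host of a group of box C/D snoRNAs, was at 18.9 and 11.0 TPM in Ctrl and at 34.5 and 42.1 TPM with AZ20. Its log2 change was 1.34 ± 0.29, with an adjusted p of 0.0948 in limma and of 0.000411 with the block, and the pairs differed at 1.82-fold and 3.81-fold. Snhg16 was at 18.9 and 14.1 TPM in Ctrl and at 39.8 and 31.7 TPM with AZ20, a log2 change of 1.08 ± 0.24 (adjusted p = 0.107, or 0.00357 with the block, limma). Snhg15 was at 20.8 and 14.3 TPM in Ctrl and at 41.7 and 30.9 TPM with AZ20, a log2 change of 1.01 ± 0.26 (adjusted p = 0.194, or 0.00681 with the block, limma). Dancr was at 2.97 and 3.77 TPM in Ctrl and at 7.63 and 8.68 TPM with AZ20, a log2 change of 1.07 ± 0.26 (adjusted p = 0.144, or 0.0146 with the block, limma). In each of the 4 genes both AZ20 libraries were above both Ctrl libraries. Across the 11 alternatives the block was the only setting that called any of the 12.

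Snhg3, the most abundant non-coding host in these cells, was at 1286 and 945 TPM in Ctrl and at 1481 and 1638 TPM with AZ20. Its log2 change was 0.50 ± 0.18 (adjusted p = 0.419, limma), with 1.15-fold in pair 1 and 1.73-fold in pair 2. Snhg12 was at 66.6 and 48.1 TPM in Ctrl and at 92.0 and 72.9 TPM with AZ20, with a log2 change of 0.53 ± 0.23. Snhg8, Snhg9, Snhg17 and Epb41l4aos had log2 changes of 0.54, 0.65, 0.57 and 0.65. In Snhg20 and Taf1d, with log2 changes of 0.41 each, the groups overlapped, and Snhg20 was 0.94-fold in pair 2. The adjusted p of these last 6 genes was between 0.295 and 0.771 in limma. Snhg4, Snhg11 and Rian, a long imprinted RNA, stayed under 1 TPM, and Rian was listed at 0 in every library.

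**Figure D4:**
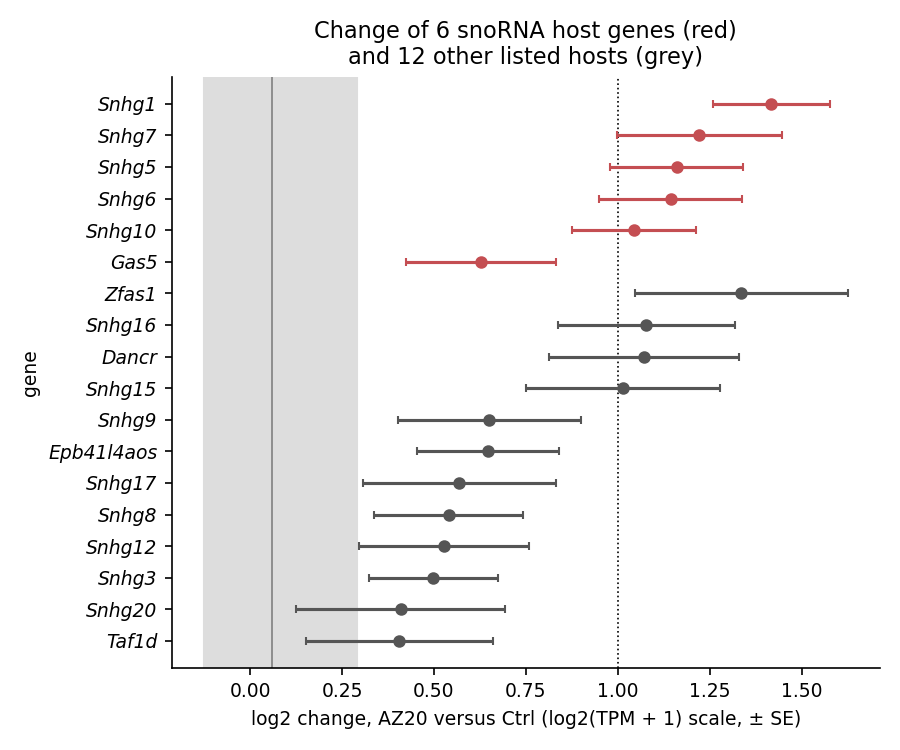
Log2 change, AZ20 versus Ctrl, on the log2(TPM + 1) scale, with bars of 1 SE from limma, for the 6 host genes (red) and 12 other listed hosts (grey), of which 11 are non-coding. The grey band and line are the quartiles and median of 9936 autosomal genes tested, and the dotted line marks a log2 change of 1; all 18 points lie to the right of the grey band.

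The many snoRNA hosts that code for protein had a median change near that of all genes. The annotation holds 268 genes of the table, other than the 6, whose bounds contain a small nucleolar or Cajal body RNA gene on the same strand. Of these 196 passed the filter, with a median log2 change of 0.13, and 7 were called higher, beside 2.28% of all genes tested. Of the 7, 5 are X-linked out of 8 X-linked hosts tested, while 63.3% of all X-linked genes tested were called higher. The other 2 are autosomal, beside 0.101% of autosomal genes. On the autosomes, 174 protein-coding hosts had a median log2 change of 0.10. Of these 122 were above 0, beside 5802 of the 9936 autosomal genes tested. The 14 hosts that GENCODE annotates as non-coding, 6 of which are also in the list above, had a median of 0.60. Of the 14, 12 were above 0. The biotype alone defines this class, and Cct6a (log2 change 0.161), a processed transcript there, is counted in it. In pair 1 the median was 0.48 in non-coding and 0.13 in protein-coding hosts, X-linked ones included, and in pair 2 it was 0.81 and 0.14. The median over the 196 went below 0, to -0.07, with libraries at a common median.

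The autosomal hosts called higher were Cks2, which encodes a subunit of cyclin-dependent kinases, and the long non-coding RNA gene 2900076A07Rik. Cks2 was at 408 and 452 TPM in Ctrl and at 970 and 1039 TPM with AZ20, a log2 change of 1.22 ± 0.14 (adjusted p = 0.00381, limma). 2900076A07Rik was at 69.0 and 59.5 TPM in Ctrl and at 135 and 160 TPM with AZ20, a log2 change of 1.18 ± 0.19 (adjusted p = 0.0209, limma). The X-linked ones were Rhox3h, Slc25a43, Rpl10, Rbmx and Maged2, with log2 changes of 2.35 (Maged2) to 6.60 (Rhox3h) from Ctrl values under 2 TPM. Leaving out 1 library took the 7 calls to between 0 and 3. With the replicate block 11 were called in place of 7, the added ones being Dancr, Snhg16, the X-linked Lrch2 and the autosomal Prpf39, which encodes a splicing factor. Prpf39 was at 30.8 and 27.3 TPM in Ctrl and at 52.8 and 80.1 TPM with AZ20, a log2 change of 1.14 ± 0.25 (adjusted p = 0.0958, or 0.00154 with the block, limma).

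Among genes for the proteins that bind and assemble snoRNAs, none was called. Of 20 snoRNP core and assembly genes, all 20 passed the filter and no call was made by limma. At an unadjusted p under 0.05 in limma, 2 were higher and 1 lower. Of the 10316 genes tested, 828 were higher and 117 lower at that p. The median log2 change of the 20 was 0.12, beside 0.07 over all genes tested. The highest were Dkc1, the X-linked pseudouridine synthase, at 1.07 ± 0.40 (adjusted p = 0.471, limma) and Gar1, its partner, at 0.96 ± 0.28 (adjusted p = 0.267, limma). Dkc1 was at 0.0354 and 0.0619 TPM in Ctrl and at 0.663 and 1.90 TPM with AZ20, and at these low levels its log2 change ran from 0.49 with quantile normalization to 3.06 with a pseudocount of 0.1. The lowest were Nhp2, another core protein of the same particle, at -0.74 ± 0.21 (adjusted p = 0.279, limma) and Shq1, an assembly factor, at -0.49 ± 0.38 (adjusted p = 0.803, limma).

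Factors of nonsense-mediated decay, which degrades spliced host RNAs, had a median log2 change of 0.16 over 19 genes. Of these 1 was called higher, beside 2.28% of all genes tested. That gene is the X-linked Upf3b, at 1.54 and 0.16 TPM in Ctrl and 9.08 and 15.6 TPM with AZ20 (log2 change 2.92 ± 0.44, adjusted p = 0.0170, limma). Upf3b was called in 6 of 11 alternatives, with a log2 change of 2.35 to 4.21 and an adjusted p of up to 0.546. The call was lost with a pseudocount of 0.1, without the filter, and without Ctrl replicate 2 or either AZ20 library. Upf1, the central helicase of the pathway, was at 66.3 and 53.9 TPM in Ctrl and 64.5 and 91.7 TPM with AZ20, and the groups overlapped. A list of mRNAs of the pyrimidine-tract class, mainly ribosomal protein genes taken by symbol, had a median of 0.04 over 97 genes tested. Their starts were not checked for the tract. The 2 called higher, Rpl10 and Rpl36a, are X-linked, with log2 changes of 3.75 and 3.60, and the 93 autosomal ones ran from -0.26 to 0.58. Like Upf3b, they lie on the chromosome where 63.3% of the genes tested were called higher.

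**Figure D5:**
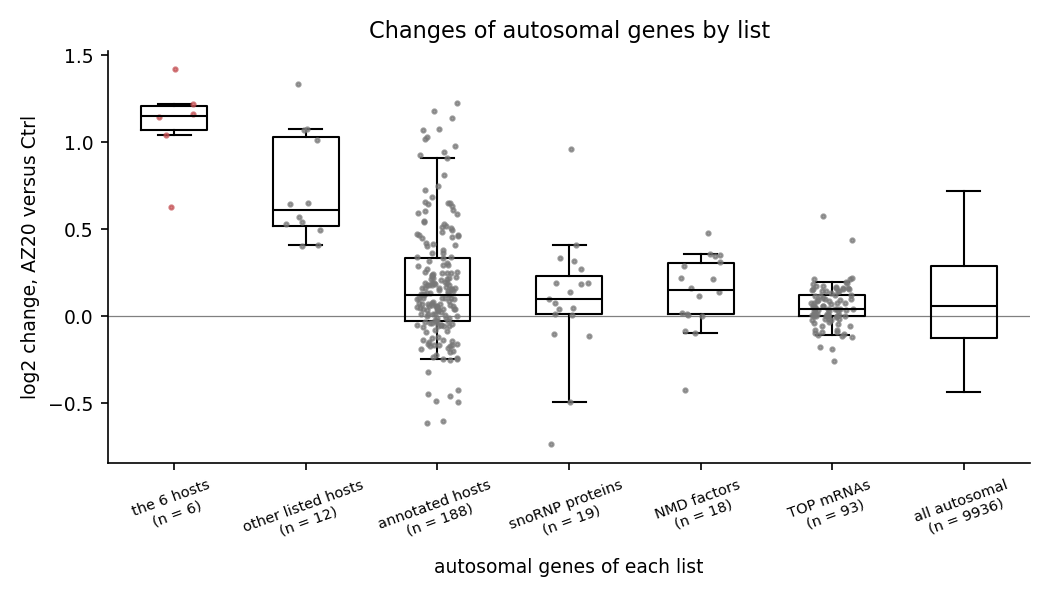
Log2 change, AZ20 versus Ctrl, of the autosomal genes in each list. Short names are snoRNP (proteins of snoRNA particles), NMD (nonsense-mediated decay) and TOP (mRNAs of the 5′ pyrimidine-tract class, taken by symbol). Boxes give quartiles with the median, whiskers the 5 and 95 percentiles, and points single genes; the 6 hosts have a median of 1.15 and the 12 other listed hosts, 11 of them non-coding, of 0.61, beside 0.06 over 9936 autosomal genes.

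The 5 genes whose levels over the 4 libraries were most like the mean profile of the 6 hosts were Cers5, Fndc3c1, 2410006H16Rik, Snord38a and Huwe1. Likeness was the Euclidean distance between log2(TPM + 1) values, each gene centred on its own mean. It was 0.10 for Cers5, a ceramide synthase gene, and 0.13 to 0.14 for the others, and the 6 hosts themselves lay between 0.07 (Snhg10) and 0.50 (Gas5) from their mean. Cers5 was at 3.70 and 3.54 TPM in Ctrl and at 8.45 and 9.21 TPM with AZ20. 2410006H16Rik, which was at 283 and 262 TPM in Ctrl and at 520 and 557 TPM with AZ20, is an annotated non-coding host with 3 small nucleolar RNA genes. Fndc3c1, Snord38a and Huwe1 were at or under 0.012 TPM in Ctrl and near 1 TPM with AZ20, so their likeness rests on the added 1 TPM. Fndc3c1 and Huwe1 are X-linked, and 63.3% of X-linked genes tested were called higher.

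The libraries held the markers of the labelled cell type. The 8 pachytene spermatocyte markers, among them Sycp1, Sycp3 and Piwil1, summed to between 9796 and 10118 TPM in the 4 libraries, with no call. The 6 Sertoli cell markers summed to 1.39 to 1.78 TPM in Ctrl and 1.78 to 2.0 TPM with AZ20, with Sox9, Wt1 and Fshr at 0. The 5 Leydig cell markers summed to 0.866 to 2.31 TPM and 1.60 to 2.11 TPM, with Insl3, Cyp17a1, Cyp11a1 and Lhcgr at 0. The 6 macrophage markers summed to 0.659 to 1.34 TPM and 1.18 to 1.47 TPM, with C1qa at 0, and the 4 myoid markers to 0.598 to 0.886 TPM and 0.679 to 1.76 TPM, with Des at 0. The 8 spermatogonial markers summed to 0.66 to 1.11 TPM in Ctrl and 1.25 to 2.27 TPM with AZ20, with Stra8 and Dmrt1 at 0, and their part in the host gene values was not tested. The 6 round spermatid markers summed to 170 to 372 TPM in Ctrl and 257 to 788 TPM with AZ20, and these ranges overlapped. The AZ20 libraries were deeper, at 17557221 and 19217996 recovered reads on genes, than the Ctrl libraries, at 13258174 and 15065340.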

How the data were processed

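RNA-seq was done on 4 libraries of cultured pachytene spermatocytes. According to the methods and the submitters' processing notes, reads were trimmed with Trimmomatic 0.39, aligned to GRCm38/mm10 with STAR 2.5.4b keeping unique alignments, and counted with featureCounts 2.0.1 on the UCSC refGene annotation. The strand setting is not given in the sources used here. Labels and methods differ in the culture temperature and the instrument. The authors computed TPM from the counts and deposited them for each library. The low values of each gene step in whole reads, and from these steps reads were recovered for 16856 of 16857 genes above 0 (within 0.004 of a read). A common factor cannot be seen, so library totals are lower limits, and counting errors cover counting only. 92 rows without a symbol were left out.

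Genes with a mean above 1 TPM in Ctrl or AZ20 were tested on log2(TPM + 1) with limma 3.58.1 in R 4.3.3 (intensity trend, Benjamini-Hochberg over 10316 genes). A gene was called at 2-fold and an adjusted p under 0.05, tested on simulated data first. The main test had no block. Pairs were inferred from the replicate numbers and from the methods, which split a mouse's cells between conditions. Over 9936 autosomal genes, the deviations of same-numbered libraries from their group means had a correlation of 0.23. Alternatives were pseudocount 0.1, no filter, a mean above 5 TPM, quantile normalization, a common median, no trend, the replicate block and leaving out each library. Named were the 6 genes, expressed genes of the list of other hosts, called genes or the extremes of the other lists, neighbours within 1 kb or overlapping, small RNA genes inside the hosts and the 5 most similar profiles. Upf1 and Prpf39 were named after their values had been seen. 1 gene is not reported here. The members and lists were chosen with earlier results of these data known. Listed genes without a row were sought under RefSeq synonyms. Sequences are from GENCODE M21 and RefSeq. Python 3.11.15 with pandas 2.3.3 and numpy 2.4.6 gave the remaining values.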

Additional observations from a re-analysis of the deposited data

How the results depend on the processing

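For the log2 changes of the 6 hosts, the filters and the replicate block changed nothing. Leaving out a library could not move them beyond the spread between replicates, because that spread is built from the same differences. Moves beyond it came with a common median (Snhg1, Snhg5, Snhg7 and Snhg10) and with quantile normalization (Snhg7). Every change of the 6 hosts stayed above 0 under all alternatives, and 55 of 60 moved by less than that spread, many by construction. Their number of calls depended on the setting: 5 fell to 2 without a filter, 3 with quantile normalization, 1 with a common median, 1 without the intensity trend, and 0 to 1 with a library left out, where fewer residual degrees of freedom remain. The median of the 6 was 0.95 with a common median and 1.02 to 1.28 with a library left out. With the replicate block (paired libraries), 424 genes were called higher in place of 235, 23 lower in place of 5, 4 other listed hosts in place of 0 and 11 annotated hosts in place of 7, and the block changed no call of the 6. Without a filter 1 gene was called lower. Leaving out a library gave 0 to 184 genes higher, with 0 for either AZ20 library, 0 to 1 lower and 0 to 3 annotated hosts. The median of annotated hosts was 0.03 with quantile normalization and -0.07 with a common median, and that of pyrimidine-tract mRNAs was -0.159 with a common median and -0.013 to 0.151 with a library left out. Glrx5 reversed to -0.055 with a common median. The cause of these differences was not tested, and the alternatives for named genes outside the 6 were chosen after seeing the data. With 2 libraries a condition, and 65 reads behind the lowest host value, small changes and the small RNAs are out of reach.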
